A study of Mus musculus with 10 samples.

Results

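This report covers the genes of the MHC class II presentation pathway in colon tissue with checkpoint inhibitor colitis. The set was fixed by name and holds 10 genes, of which 9 had a named probe set and were measured, out of 19505 genes on the array. These are the α and β chain genes H2-Aa, H2-Ab1 and H2-Eb1, the peptide exchange factor genes H2-DMa, H2-DMb1 and H2-DMb2, their inhibitor genes H2-Oa and H2-Ob, and the transactivator gene Ciita. The invariant chain gene Cd74 is not analysed here. Complete colon tissue of wild type C57BL/6 mice was profiled on 10 single-colour arrays, all from animals given 3% dextran sulfate sodium (DSS), which injures the colonic epithelium, in drinking water and an intraperitoneal antibody against the checkpoint receptor PD1. The ECP arrays are 5 samples whose mice also received donor cells treated by extracorporeal photopheresis (ECP), a procedure that combines a light-activated drug with ultraviolet A on white blood cells. The control arrays are 5 samples with the same colitis and no such cells named in the labels. The labels give neither the kind and number of donor cells nor the age of the mice nor the time of sampling. They also do not say that arrays come from separate animals, and the p-values then cover only sample-to-sample spread, which may be technical. Values are log2 intensities after RMA, which puts all arrays on one distribution, and ± gives the SD of 5 arrays. A difference of 1 on this scale is a doubling of intensity, and levels of different probe sets are not compared with each other.

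MHC class II molecules are αβ pairs that carry peptides from endosomes to the cell surface for CD4 T cells, and dendritic cells, macrophages and B cells make them constitutively, while intestinal epithelial cells can be induced to do so by interferon-γ. The invariant chain fills the groove until DM exchanges its remnant for peptide, and DO, found mainly in B cells, restrains DM. Ciita binds no DNA itself and is recruited by factors sitting on conserved boxes, the X and Y boxes among them, in class II promoters. C57BL/6 mice lack a functional Eα chain, so H2-Eb1 is transcribed in them without I-E reaching the cell surface, and I-A, encoded by H2-Aa and H2-Ab1, is their class II molecule.

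Letters matching the boxes that Ciita acts through could be read in the promoters of 5 of the 7 measured members listed in the RefSeq promoter table (build GRCm38.p6, 250 bases before to 50 after each start, chromosome 17). They are shown as a sequence feature that these 5 genes share, and what binds there was not tested. The first run of capitals is an X box core (CNNGNAAC), the second a Y box core (ATTGG), the CCAAT motif read on the other strand, and all 5 lie upstream of the start, 5′ to 3′ on the gene's own strand. H2-Aa was read at chr17:34287852-34287922 on the minus strand, and the others on the plus strand, H2-Eb1 at chr17:34305758-34305827, H2-DMb1 at chr17:34153079-34153149, H2-Oa at chr17:34092285-34092355 and H2-Ob at chr17:34238800-34238867.
H2-Aa: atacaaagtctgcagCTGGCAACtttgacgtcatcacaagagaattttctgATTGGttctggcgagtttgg
H2-Eb1: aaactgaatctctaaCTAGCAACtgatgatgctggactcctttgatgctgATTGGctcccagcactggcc
H2-DMb1: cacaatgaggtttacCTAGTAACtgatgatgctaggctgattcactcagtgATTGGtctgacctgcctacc
H2-Oa: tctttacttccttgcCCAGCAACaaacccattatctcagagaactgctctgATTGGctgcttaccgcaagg
H2-Ob: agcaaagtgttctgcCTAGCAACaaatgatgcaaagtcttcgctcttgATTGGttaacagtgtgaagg
The bases between both cores numbered 28 in H2-Aa, H2-DMb1 and H2-Oa, 27 in H2-Eb1 and 25 in H2-Ob. A search of both strands for the X core followed after 24 to 30 bases by the Y core matched 88 of 32851 promoters (0.268%), while the Y core alone was in 37.4% and the X core alone in 39.1%. The letters and the spacing were set after reading the members' promoters, so the share describes how rare the arrangement is and tests nothing. The 2 other members with an entry, H2-DMa and H2-DMb2, had no such match in the listed windows, which says only that these letters are not there.

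In all 9 measured genes the same 2 arrays were the highest, ECP replicate 1 and control replicate 4, one in each group. ECP replicate 1 was the highest ECP array in 9 of 9 genes and control replicate 4 the highest control array in 9 of 9, against 23.2% of all genes for each, and both arrays lay above the other 8 in all 9, against 6.55% of all genes. This pattern was looked for after the values had been seen and is a description. Transcripts of the exocrine pancreas, which colon should lack, also varied: the mean level of 7 acinar genes was 5.43 to 5.66 in the ECP arrays, against 12.74 in control replicate 4, 10.996 in control replicate 1, 6.79 in control replicate 5 and 5.56 to 5.73 in control replicates 2 and 3. Their part in the results was not tested. Group differences of the class II genes and their relation with Ciita are therefore given with and without ECP replicate 1 and control replicate 4. In whole tissue, fewer cells of a type and less RNA per cell cannot be told apart.

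The transactivator gene Ciita had equal means in both groups. Its log2 intensity was 7.44, 6.46, 6.64, 6.62 and 6.67 in ECP replicates 1 to 5, against 6.33, 6.68, 6.69, 7.66 and 6.48 in control replicates 1 to 5. One array of each group stood well above the other 8, which spanned 6.33 to 6.69, and the groups overlapped. The mean was 6.77 ± 0.39 in the ECP arrays and 6.77 ± 0.52 in the control arrays (SD, n = 5 each), and the 95% interval of the difference ran from -0.53 to 0.53 (limma adjusted p = 1.000).

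The chain genes of the presenting molecules differed between groups by less than the spread within them. H2-Aa, the I-A α chain gene, was at 11.01, 10.11, 10.004, 10.15 and 10.28 in the ECP arrays, against 9.69, 10.42, 10.36, 11.08 and 10.17 in the control arrays, a difference of -0.04 (SE 0.24). H2-Ab1, the I-A β chain gene, was at 10.996, 10.03, 10.18, 10.23 and 10.35 in the ECP arrays, against 9.38, 10.43, 10.16, 10.83 and 10.11 in the control arrays, a difference of 0.18 (SE 0.25). The groups overlapped in both genes, ECP replicate 1 and control replicate 4 were close to each other, and control replicate 1 was the lowest of the 10. H2-Eb1, the I-E β chain gene, was at 10.02, 9.27, 9.24, 9.37 and 9.36 in the ECP arrays, against 8.76, 9.41, 9.39, 9.97 and 9.22 in the control arrays, a difference of 0.10 (SE 0.21). It had the same 2 high arrays and the same low one. Without ECP replicate 1 and control replicate 4 the 3 differences were -0.03, 0.18 and 0.12.

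Genes of the peptide exchange factor DM were on average lower in the ECP arrays, by less than the spread within groups. H2-DMa, its α chain gene, was at 7.70, 6.90, 6.92, 6.65 and 7.05 in the ECP arrays, against 6.61, 7.16, 7.31, 8.08 and 6.88 in the control arrays, a difference of -0.16 (SE 0.26). H2-DMb1, a β chain gene, was at 9.67, 8.63, 8.83, 8.89 and 8.99 in the ECP arrays, against 8.46, 9.08, 9.005, 10.14 and 8.69 in the control arrays, a difference of -0.07 (SE 0.28). In both the groups overlapped, and control replicate 4 stood above ECP replicate 1. H2-DMb2, the second β chain gene, was at 8.62, 7.59, 7.66, 7.77 and 7.78 in the ECP arrays, against 7.58, 7.71, 7.74, 9.83 and 7.596 in the control arrays, a difference of -0.21 (SE 0.39). Its other 8 arrays lay within 7.58 to 7.78, and control replicate 4 was more than 2 log2 units above the other controls. Without both high arrays the differences were -0.11 for H2-DMa, 0.03 for H2-DMb1 and 0.04 for H2-DMb2. H2-DMb1 and H2-DMb2 are similar copies, and whether their probe sets take up each other's transcripts was not tested.

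The DM inhibitor genes also differed between groups by less than the spread within them. H2-Ob, the DO β chain gene, was at 7.94, 6.97, 7.03, 6.97 and 7.09 in the ECP arrays, against 6.93, 6.97, 6.96, 9.45 and 7.002 in the control arrays, a difference of -0.26 (SE 0.44). Apart from ECP replicate 1 and control replicate 4 all arrays were within 6.93 to 7.09. H2-Oa, the DO α chain gene, was at 6.36, 5.96, 6.27, 6.15 and 6.07 in the ECP arrays, against 6.08, 6.02, 5.91, 7.17 and 5.74 in the control arrays, a difference of -0.02 (SE 0.22). Control replicate 4 alone stood clear here, ECP replicate 1 was just above ECP replicate 3, and the groups overlapped. Without both arrays the differences were 0.05 for H2-Ob and 0.17 for H2-Oa, the second with an SE of 0.10 and a limma adjusted p of 0.938.

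**Figure D1:**
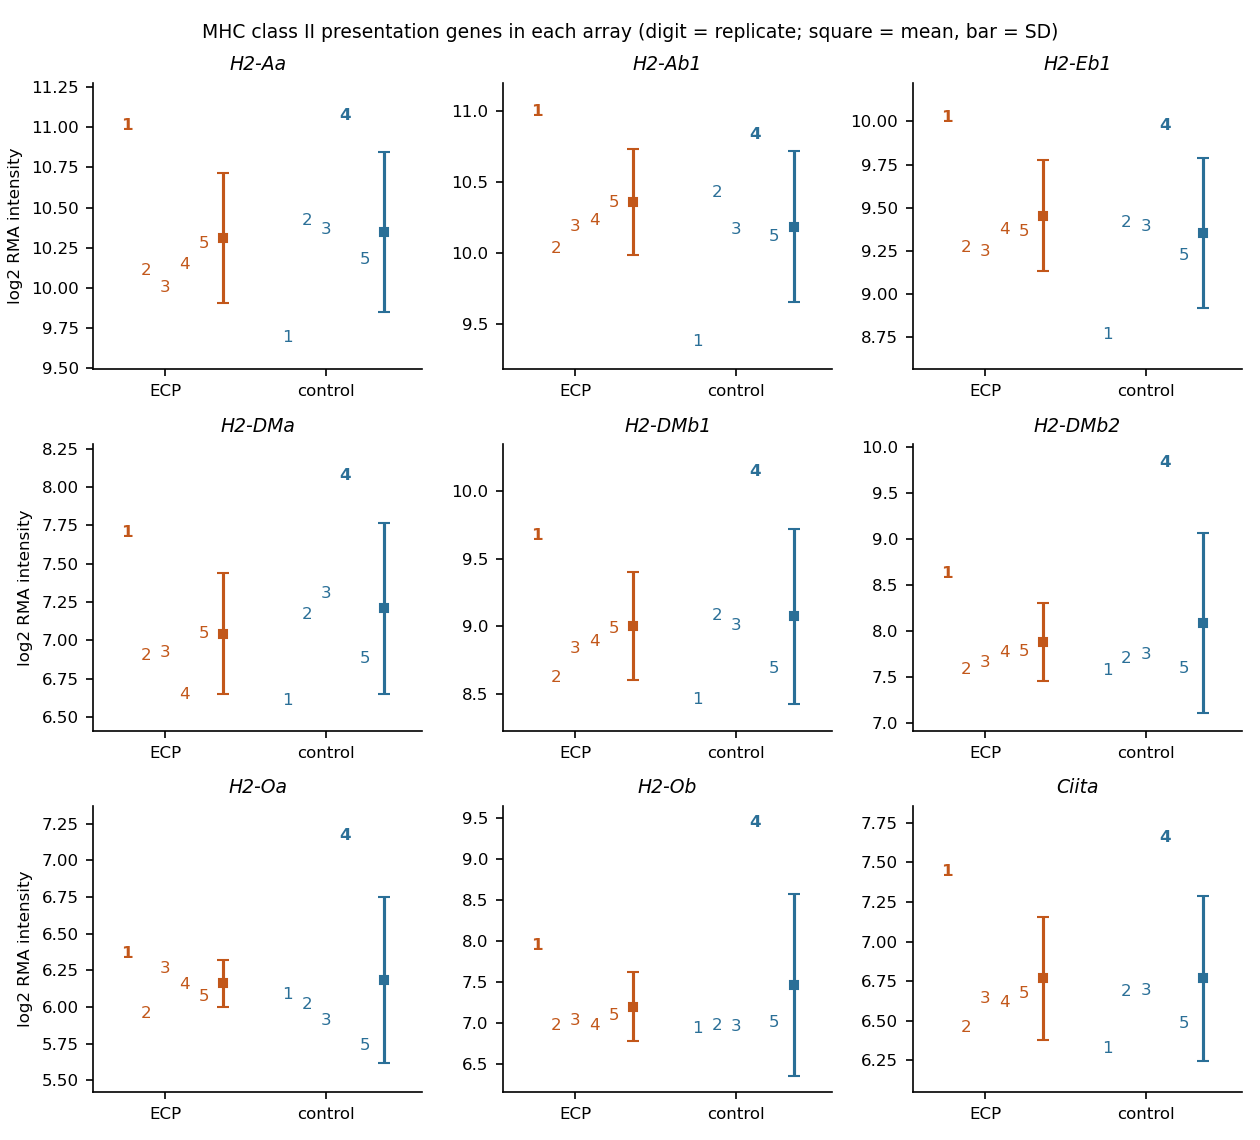
Log2 RMA intensity of the 9 measured class II genes, with ECP arrays (orange) left of control arrays (blue), each digit 1 array named by its replicate number, and squares with bars the mean and SD of 5 arrays. ECP replicate 1 and control replicate 4 (bold) are the 2 highest in every panel, at 7.44 and 7.66 for Ciita and 7.94 and 9.45 for H2-Ob.

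No class II gene passed the test between the groups. Mean levels in the ECP arrays were above those in the control arrays for 2 genes and below them for 7, with a median difference of -0.04 against 0.01 over all 19505 genes. With limma, fitted over all genes with Benjamini-Hochberg adjustment, 0 of 9 had an adjusted p under 0.05, where 0.00% of all genes had one, and the smallest adjusted p among the members was 0.998. At an unadjusted p under 0.05 the count was again 0 of 9, against 5.08% of all genes. All 9 genes overlapped between the groups, whereas 1.22% of all genes did not overlap. The 95% intervals were widest for H2-Ob, -1.22 to 0.70, and H2-DMb2, -1.07 to 0.65. They ran from -0.35 to 0.55 for H2-Eb1 and from -0.36 to 0.71 for H2-Ab1. Differences inside these bounds were not excluded with 5 arrays per group. Leaving out single arrays turned the sign of the difference in each of the 9 genes, for H2-Ab1 to -0.03 without control replicate 1 and for H2-Ob to 0.23 without control replicate 4. With the mean level of 10 B cell markers as a covariate the SE of H2-Ob was 0.08, against 0.44 without it, and its difference was 0.08 (limma adjusted p = 0.913).

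**Figure D2:**
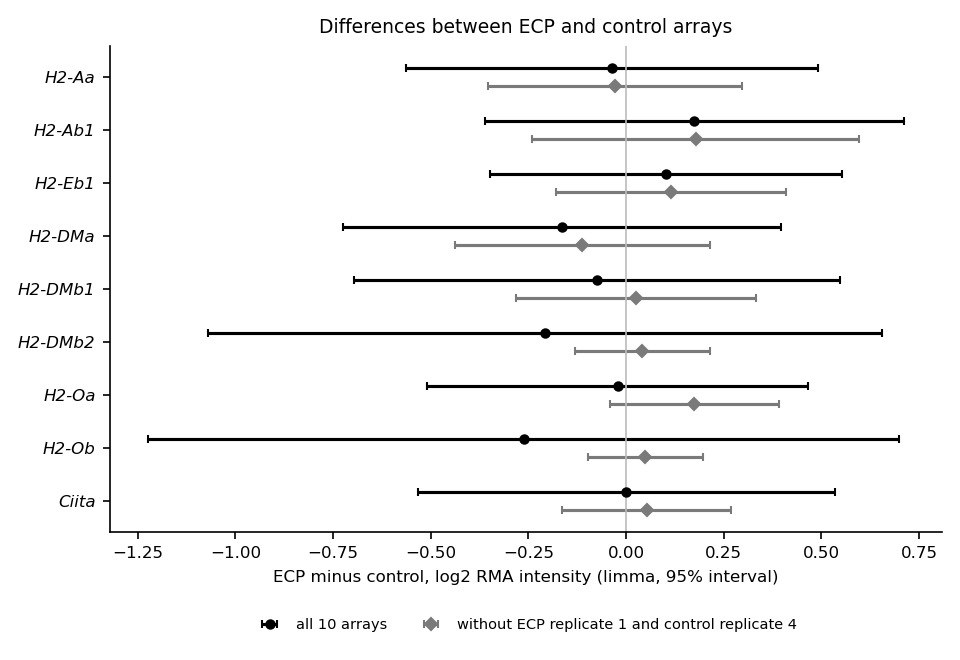
Difference between ECP and control arrays in log2 RMA intensity for each gene, with 95% limma intervals, from all 10 arrays (black circles) and without ECP replicate 1 and control replicate 4 (grey diamonds). All intervals cover 0, and that of H2-Ob spans -1.22 to 0.70 with all arrays.

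The genes departed to different extents in the 2 high arrays. The presenting chains departed equally in both: H2-Aa lay 0.87 above the mean of the other 4 ECP arrays in ECP replicate 1 and 0.91 above the mean of the other 4 control arrays in control replicate 4, H2-Ab1 0.80 and 0.81, and H2-Eb1 0.71 and 0.78. Ciita departed by 0.85 in ECP replicate 1 and 1.11 in control replicate 4, H2-DMa by 0.83 and 1.09, and H2-DMb1 by 0.84 and 1.33. The departure in control replicate 4 was far larger for H2-DMb2, at 0.93 in ECP replicate 1 and 2.17 in control replicate 4, for H2-Ob, at 0.92 and 2.48, and for H2-Oa, at 0.25 and 1.23. These are single arrays, so the contrast between genes was not tested.

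Marker lists of 2 cell types that make class II showed both shapes. The mean level of 10 measured B cell markers departed by 0.89 in ECP replicate 1 and by 2.35 in control replicate 4, with the B cell surface gene Ms4a1 at 1.32 and 3.20 and the receptor gene Cd79a at 1.38 and 2.93. The mean of 10 macrophage markers departed by 0.45 and 0.50, with the growth factor receptor gene Csf1r at 0.72 and 0.88 and the complement gene C1qb at 0.68 and 0.64. Its members were not alike: the receptor genes Cd14, at 0.13 and 0.35, and Cd163, at 0.14 and 0.37, departed less, and Mertk departed downwards, at -0.21 and -0.31. Thus H2-Ob and H2-DMb2 had departures near those of the B cell list, and H2-Aa, H2-Ab1 and H2-Eb1 had near-equal departures in both arrays, as the mean of the macrophage list did at smaller size. Near-equal departures were not particular to the macrophage list. The mean of MHC class I presentation genes departed by 0.42 and 0.43, and that of endosomal processing genes by 0.21 and 0.27. Lymphoid follicle markers, which attract or mark cells of lymphoid aggregates, departed by 0.84 and 1.84, with the B cell chemokine gene Cxcl13 at 1.46 and 2.93, and T cell markers by 0.45 and 1.57. The mean of 9 dendritic cell markers departed by 0.15 and 0.08 and that of 9 colon epithelial markers by -0.07 and -0.24. The dendritic cell markers were not alike. Flt3 departed by 0.38 and 0.59 and Clec9a by 0.49 and 0.39, but Zbtb46 by -0.09 and -0.12 and Cd209a by 0.16 and -0.50. The part of these cell types in the class II pattern was not tested.

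**Figure D3:**
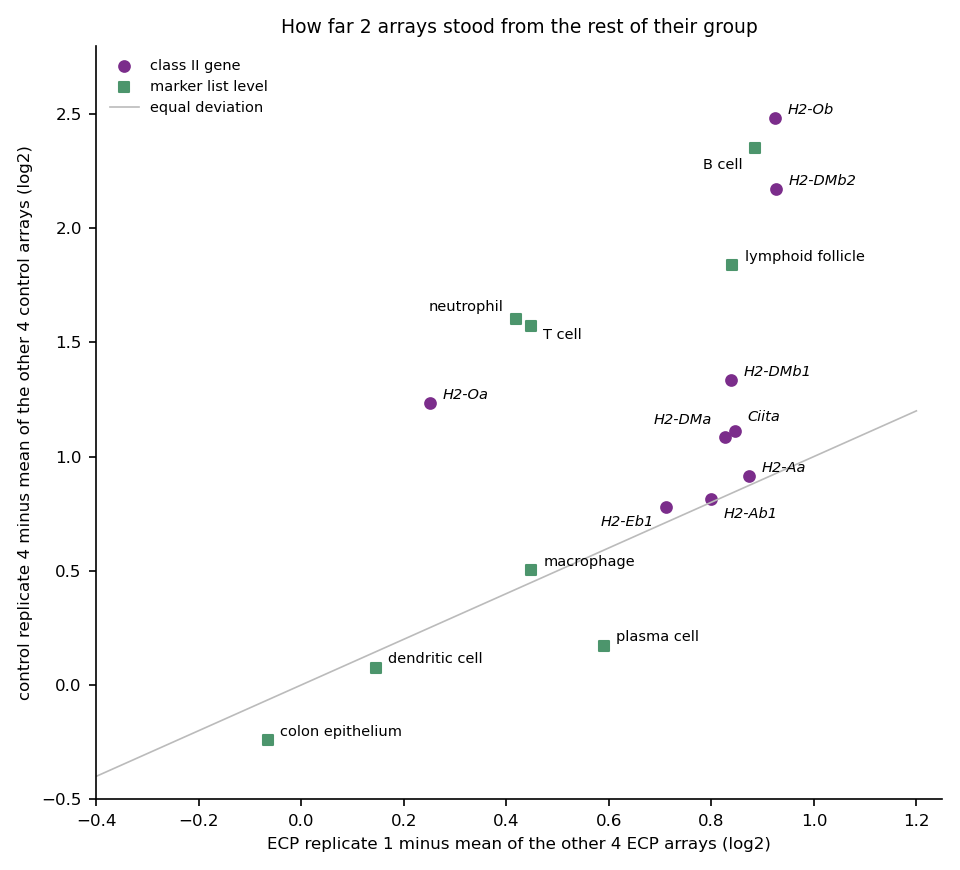
Departure of ECP replicate 1 from the mean of the other 4 ECP arrays (horizontal, log2) against that of control replicate 4 from the mean of the other 4 control arrays (vertical, log2), for 9 class II genes (purple circles) and the mean levels of 8 marker lists (green squares), with the line of equal departure and the acinar list left out. H2-Aa, H2-Ab1, H2-Eb1 and the macrophage and dendritic cell lists lie near the line, and H2-Ob (0.92, 2.48), H2-DMb2 and the B cell list lie well above it.

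Across groups the marker levels overlapped. The B cell level ranged from 5.88 to 6.91 in the ECP arrays and from 5.98 to 8.41 in the control arrays, and the macrophage level from 7.8003 to 8.39 in the ECP arrays and from 7.53 to 8.33 in the control arrays. Dendritic cell markers ranged from 5.85 to 6.08 in the ECP arrays and from 5.78 to 5.94 in the control arrays. Of the B cell markers 10 of 10 had a lower mean in the ECP arrays, where 9112 of 19505 genes did. This direction leaned on control replicate 4, at a B cell level of 8.41. The other 4 control arrays, at 5.98 to 6.17, all lay below the ECP mean, which includes ECP replicate 1 at 6.91. The count without these high arrays was not computed. Of the macrophage markers 7 of 10 had a higher mean and of the dendritic cell markers 7 of 9, where 10393 of 19505 genes did. None passed the adjusted threshold in limma, which 0.00% of all genes passed. Colon markers were high throughout, with the carbonic anhydrase gene Car1 at 12.87 or more and the mucin gene Muc2 at 13.24 or more on every array, where array medians over all probe sets were 6.94 to 6.98.

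**Figure D4:**
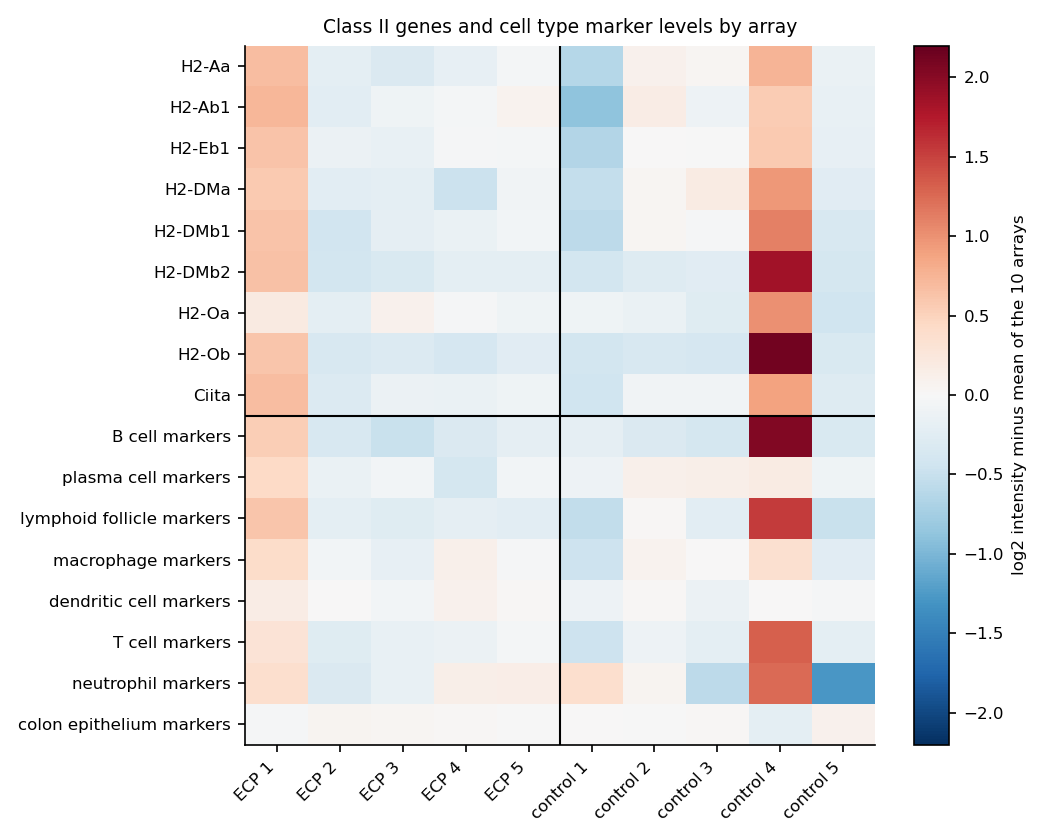
Log2 intensity of each class II gene (top) and mean level of each of 8 marker lists (bottom) minus its mean over the 10 arrays, with ECP arrays left of the vertical line and control arrays right of it. ECP replicate 1 and control replicate 4 are red in all class II rows, and the bluest cell of the class II rows is H2-Ab1 in control replicate 1, at 9.38. The acinar list is left out.

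The other question was how closely the class II genes followed Ciita across arrays. Over all 10 arrays every one of the 8 other genes rose with Ciita. In a limma regression of all genes on the Ciita level, 8 of 8 members had a positive slope with an adjusted p under 0.05 over 19504 genes, where 2.88% of all genes had one. H2-DMb1 followed it most closely, with a slope of 1.16 log2 units per log2 unit of Ciita (SE 0.08, adjusted p = 5.0e-05). The slope was 1.70 (SE 0.22) for H2-Ob, 1.56 (SE 0.17) for H2-DMb2, 1.01 (SE 0.12) for H2-DMa and 0.94 (SE 0.11) for H2-Aa. It was 0.90 (SE 0.15) for H2-Ab1, 0.79 (SE 0.10) for H2-Eb1 and 0.76 (SE 0.15) for H2-Oa, whose adjusted p of 0.0150 was the largest of the 8. With the group in the fit 8 of 8 passed, against 2.73% of all genes.

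Pearson r with Ciita over the 10 arrays was 0.985 for H2-DMb1 (permutation p = 2e-05), 0.949 for H2-Aa (permutation p = 0.00025), 0.941 for H2-DMb2 (permutation p = 6e-05) and 0.940 for H2-DMa (permutation p = 0.0003). It was 0.938 for H2-Eb1 (permutation p = 0.00027), 0.913 for H2-Ob (permutation p = 0.00108), 0.875 for H2-Ab1 (permutation p = 0.00031) and 0.839 for H2-Oa (permutation p = 0.00369). These p-values are two-sided, from 100000 resamples and unadjusted over the 8 relations. Spearman's rho, which does not weigh how far the high arrays stand out, was 0.976 for H2-DMb1 (permutation p = 4e-05), 0.952 for H2-DMa (permutation p = 0.00011), 0.903 for H2-Aa (permutation p = 0.0008), 0.891 for H2-Eb1 (permutation p = 0.00125), 0.867 for H2-DMb2 (permutation p = 0.00209) and 0.855 for H2-Ab1 (permutation p = 0.00287). For the DO genes it was only 0.564 for H2-Ob (permutation p = 0.0961) and 0.430 for H2-Oa (permutation p = 0.219). An r of at least 0.8 with Ciita was reached by 8 of 8 members and by 3.14% of all genes.

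Because Ciita fell into 2 high arrays and 8 arrays close together, the relation was computed again in the 8, which are also what remains without the 2 arrays farthest from the Ciita median. H2-DMb1 kept an r of 0.971 (exact permutation p = 0.000273) and a rho of 0.952 (exact permutation p = 0.00114). H2-Ab1 had an r of 0.885 (exact permutation p = 0.00151), H2-Eb1 of 0.867 (exact permutation p = 0.0064), H2-DMb2 of 0.841 (exact permutation p = 0.00905) and H2-Aa of 0.805 (exact permutation p = 0.0163). H2-DMa was at 0.698 (exact permutation p = 0.0629), with a rho of 0.905 (exact permutation p = 0.00456). The DO genes did not keep it: H2-Ob had an r of 0.501 (exact permutation p = 0.210) and a rho of 0.143, and H2-Oa an r of 0.218 (exact permutation p = 0.599) and a rho of -0.12, so their relation with Ciita over 10 arrays was not seen in the other 8. For H2-Oa it rested on control replicate 4, since the slope was 0.37 without that array (limma adjusted p = 0.465) and 0.97 without ECP replicate 1 (limma adjusted p = 0.0046). For H2-Ob the slope passed without either one, at 0.95 without control replicate 4 and 2.04 without ECP replicate 1, but each fit kept the other high array. Without control replicate 4 its rho was 0.40 (exact permutation p = 0.291). In the 8 arrays an r of at least 0.8 was reached by 5 of 8 members and by 1.93% of all genes.

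Slopes were steeper for some genes and shallower for others. Among the 8 arrays the slope on Ciita was 2.13 for H2-Ab1 (95% interval 1.197 to 3.06), 1.38 for H2-Aa (0.51 to 2.26), 1.37 for H2-Eb1 (0.61 to 2.13) and 1.56 for H2-DMb1 (0.96 to 2.15), higher than over 10 arrays. For H2-DMa it was 1.24 (SE 0.46), against 1.01 over 10 arrays. It was 0.53 for H2-DMb2 (-0.05 to 1.11), 0.19 for H2-Ob (-0.39 to 0.76) and 0.26 for H2-Oa (-0.70 to 1.22), lower than over 10 arrays. After adjustment over all genes 0 of 8 members passed in the 8 arrays (limma, smallest adjusted p = 0.285), where 0.00% of all genes passed, and 5 of 8 had a positive slope with an unadjusted p under 0.05, against 5.98% of all genes. Without control replicate 4 alone 7 of 8 passed, against 0.523% of all genes, the exception being H2-Oa. Without both control replicates 1 and 4, the arrays with the highest acinar levels, 6 of 8 passed, against 0.308% of all genes, H2-DMa (slope 0.89, limma adjusted p = 0.1025) and H2-Oa being the exceptions. With the B cell level in the fit 0 of 8 passed, against 0.0205% of all genes. At an unadjusted p under 0.05 in limma 6 of 8 had a positive slope there, against 1251 of 19504 genes. H2-Ab1 had a slope of 1.58 (SE 0.26), H2-Eb1 of 1.17 (SE 0.19), H2-Aa of 1.16 (SE 0.23), H2-DMb1 of 1.08 (SE 0.18) and H2-DMa of 0.97 (SE 0.27) in that fit. H2-DMb2 was at 0.51 (SE 0.16), H2-Ob at 0.30 (SE 0.18) and H2-Oa at 0.10 (SE 0.26).

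**Figure D5:**
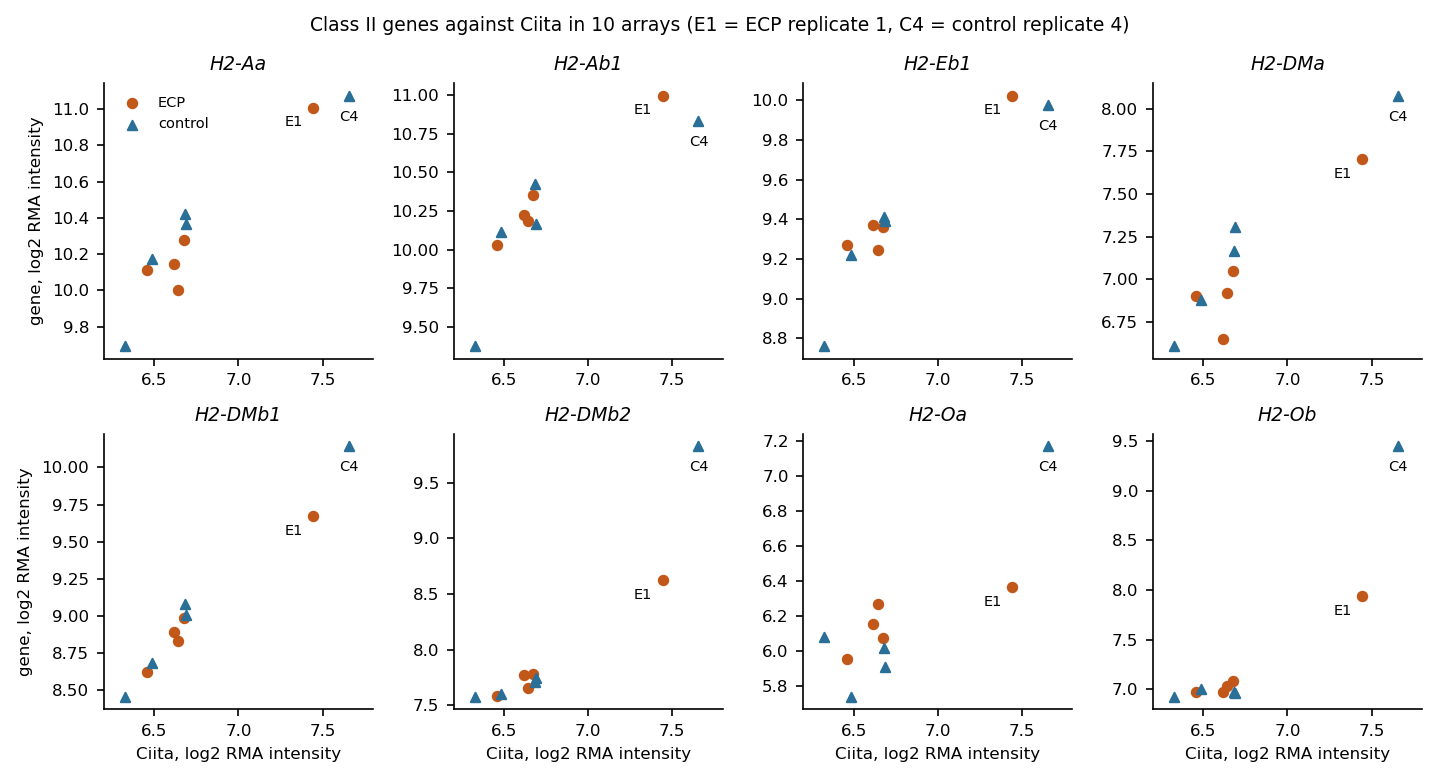
Log2 RMA intensity of each of 8 class II genes (vertical) against Ciita (horizontal), with ECP arrays as orange circles and control arrays as blue triangles. ECP replicate 1 (E1) and control replicate 4 (C4) lie apart from the other 8 arrays, which line up with Ciita for H2-DMb1 (r = 0.971) and scatter for H2-Oa (r = 0.218).

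Other genes had patterns as close to Ciita as the members. By Pearson r over 10 arrays the nearest that are not members were Rasgrp3, a Ras activator of B cells (0.988), Fyb, an adaptor of T cells and myeloid cells (0.977), Cd180, a Toll-like receptor relative of B cells and macrophages (0.976), Parp3 (0.971), Ifi213 (0.971), Ifi214 (0.971), Dock10 (0.970) and the interferon-induced nuclear body gene Sp100 (0.966). Only Rasgrp3 and Cd180 of these were at 0.8 or more in the 8 arrays, at 0.916 and 0.828. Nearest to H2-Ab1 were Tmem229b (0.966), Csf1r (0.961), the proton-sensing receptor gene Gpr65 (0.960), the interferon-induced kinase gene Eif2ak2 (0.958), C1qb (0.958), Ms4a6b (0.954), Glipr1 (0.953) and Got2 (0.951), and all 8 were at 0.898 or more in the 8 arrays. H2-DMb1 ranked 2 of 19504 in likeness to Ciita over 10 arrays and 2 again in the 8. H2-Eb1 ranked 1 in likeness to H2-Ab1 over 10 arrays and 9 in the 8.

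The rest of the pathway did not separate the groups either. Of 48 further pathway genes 44 were measured, 25 with a higher and 19 with a lower mean in the ECP arrays, and their median difference was 0.03. None passed the adjusted limma threshold (0.00% of all genes), and 2 had an unadjusted p under 0.05, against 5.08% of all genes. Both belong to the X and Y box factors: Creb1, which binds the X box region, averaged 8.51 ± 0.10 in the ECP arrays and 8.73 ± 0.18 in the control arrays (difference -0.22, SE 0.09, limma adjusted p = 0.950), and Nfyb, a subunit of the Y box factor NF-Y, 9.36 ± 0.05 and 9.21 ± 0.11 (0.15, SE 0.07, 0.966). The RFX genes, whose products bind the X box, differed by 0.17 (SE 0.13) for Rfx5 and -0.10 (SE 0.08) for Rfxap. Upstream of Ciita, Ifng, the cytokine that induces it, averaged 5.40 ± 0.21 in the ECP arrays and 5.18 ± 0.16 in the control arrays (0.22, SE 0.11), and the factor gene Irf1 10.47 ± 0.12 and 10.59 ± 0.09 (-0.13, SE 0.07). Its receptor genes Ifngr1 and Ifngr2 differed by 0.09 and 0.05.

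Regulators of Ciita in single lineages gave 3 higher and 2 lower genes of 5. The myeloid and B cell factor gene Spi1 differed by 0.09 (SE 0.32), the B cell factor gene Pax5 by -0.10 (SE 0.41), Irf4 by -0.11 (SE 0.27) and Prdm1, a repressor of Ciita in plasma cells, by 0.10 (SE 0.13). Endosomal processing genes gave 5 higher and 2 lower of 7, with the reductase gene Ifi30 at -0.16 (SE 0.10), the protease genes Lgmn at 0.16 (SE 0.10), Ctss, which trims the invariant chain, at 0.12 (SE 0.10) and Ctsl at 0.10 (SE 0.09). Marchf1, a ubiquitin ligase that removes class II from the surface, differed by 0.08 (SE 0.37), its relative Marchf8 by 0.07 (SE 0.06), and Cd83, which opposes Marchf1, by -0.14 (SE 0.15). The remaining class II β chain gene H2-Eb2 differed by -0.16 (SE 0.27). Costimulation and recognition genes gave 2 higher and 4 lower of 6, with the class II coreceptor gene Cd4 at -0.19 (SE 0.20), Lag3, a class II-binding checkpoint receptor, at 0.07 (SE 0.13), Cd80 at 0.13 (SE 0.26) and Icosl at -0.07 (SE 0.28).

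Several of these genes followed Ciita while others of the same list did not. Among X and Y box factors 1 of 7 had a positive slope past the adjusted threshold over 10 arrays, Rfx5 at 0.45 (SE 0.11), and in the interferon-γ to Ciita list 1 of 7, Jak1 at 0.32 (SE 0.07), against 2.88% of all genes. Ifng itself had a slope of 0.11 (SE 0.15, limma adjusted p = 0.732) and Irf1 of 0.12 (SE 0.09). Spi1 (1.23, SE 0.14), Irf4 (1.00, SE 0.15) and Pax5 (1.43, SE 0.28) made 3 of 5 lineage regulators, Marchf1 (1.47, SE 0.14) and Cd83 (0.50, SE 0.13) 2 of 3 ubiquitination genes, and 5 of 6 costimulation and recognition genes passed, Lag3 being the exception at -0.22 (SE 0.15). Of the endosomal processing genes 2 of 7 passed, Ctss at 0.33 (SE 0.08) and the protease gene Ctsh at 0.40 (SE 0.10), and H2-Eb2 passed at 0.99 (SE 0.16). Among the 8 arrays 0 of these passed, as was so for all genes, and the slopes there were 2.201 for Spi1, 1.65 for Marchf1, 0.57 for Rfx5, 0.47 for Irf4, 0.35 for Jak1 and 0.10 for Cd83. They were negative for Pax5, at -0.49 (SE 0.68), and for H2-Eb2, at -0.41 (SE 0.44), and 3 of 5 lineage regulators were positive.

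Genes of MHC class I presentation, the sister pathway, gave no call between the groups either, and part of them followed Ciita. Of its 8 measured genes 7 had a higher mean in the ECP arrays and 1 a lower one, with differences for B2m of 0.07 (SE 0.08), H2-K1 at 0.06 (SE 0.08), Psmb8 at 0.11 (SE 0.20) and Tap1 at 0.09 (SE 0.22), and none passed the adjusted threshold. Over 10 arrays 4 of 8 had a positive slope on Ciita past the threshold, against 2.88% of all genes, with a median slope of 0.36: the peptide transporter genes Tap1 at 0.82 (SE 0.14) and Tap2 at 0.46 (SE 0.07), and the immunoproteasome genes Psmb8 at 0.70 (SE 0.13) and Psmb9 at 0.56 (SE 0.14), all 4 of which lie within the class II region of the MHC. The class I heavy chain gene H2-K1 had 0.26 (SE 0.07, limma adjusted p = 0.0622) and the light chain gene B2m 0.22 (SE 0.08, 0.140). The 8 class II members had slopes of 0.76 to 1.70, a range that Tap1 fell within, and the difference between both pathways was not tested. Without control replicate 4, 0 of the 8 class I genes passed, against 0.523% of all genes.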

How the data were processed

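Total RNA was labelled with biotin and hybridised to 10 single-colour arrays. The authors deposited log2 intensities per probe set, for which the submitters' processing notes name oligo and RMA. No version, option or build is named there, and detection calls were not analysed. The table held 22203 probe sets. All 19572 probe sets with a symbol in the platform annotation had 1 symbol and matched RefSeq, and 2631 were unnamed. The probe set with the highest mean was kept per gene, and no member had several. Groups came from sample titles. All genes were fitted with limma 3.58.1 in R 4.3.3 (no covariate, no filter), with Benjamini-Hochberg adjustment and a threshold of 0.05, for group and for slope on Ciita. The code was tested on simulated data. An adjustment over the relations with Ciita alone had been planned and was replaced by the regression over all genes. Named genes were the members, up to 4 genes of smallest p per pathway list and the 8 genes nearest to Ciita and to H2-Ab1, and others named beside slopes or markers were chosen after their values were seen. Members and lists were chosen with earlier results of these data known. The labels give no batch. Replicate numbers did not pair the arrays (correlations of deviations -0.24 to 0.08).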

Additional observations from a re-analysis of the deposited data

Results flagged for a closer look

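In 23 of 92 groups of 5 arrays tested for the genes and marker levels above, 1 array stood apart, with a gap to its nearest neighbour above 0.71 of the group's range. About 5 would be expected of independent groups. These groups share the same 10 arrays and many of the genes rise together, so the excess tests nothing about them. The share over all genes was not computed for this rule. ECP replicate 1 and control replicate 4 were each the highest of their group in 23.2% of all genes. Control replicate 4 accounted for 11, ECP replicate 1 for 10 and control replicate 1 for 2. ECP replicate 1 was high in H2-Aa (11.01, next 10.28), H2-Eb1 (10.02, next 9.37), H2-DMb2 (8.62, next 7.78), H2-Ob (7.94, next 7.09) and Ciita (7.44, next 6.67). It was also high in Spi1 (10.55, next 9.72), Marchf1 (7.98, next 7.01), Cd4 (7.99, next 7.76), B cell markers (6.91, next 6.17) and lymphoid follicle markers (7.97, next 7.17). Control replicate 4 was high in H2-DMb2 (9.83, next 7.74), H2-Oa (7.17, next 6.08), H2-Ob (9.45, next 7.002) and Ciita (7.66, next 6.69). The same array was high in H2-Eb2 (6.81, next 5.72), Irf4 (6.85, next 5.54), Pax5 (8.28, next 6.25), H2-K1 (12.32, next 12.06), B cell markers (8.41, next 6.17), lymphoid follicle markers (8.89, next 7.39) and T cell markers (7.37, next 5.94). Control replicate 1 was low in Ctsl (9.43, next 9.77) and Marchf8 (9.95, next 10.03).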

How the results depend on the processing

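No class II gene passed the group test under any of the alternatives run, leave-one-out fits included. Over all genes 0 passed in the fit with all arrays, against 1 with trend and robust options, 1 with the lowest quartile left out, 7 with genes below the median left out (which also drops Ciita and H2-Oa) and 0 to 1 when single arrays were left out. With the replicate number as a block 0 genes and 0 members passed, and 1 of 10 arrays correlated best with its own number in the other group. Signs of the differences were not stable. Leaving out 1 array gave -0.21 to 0.15 for H2-Aa, -0.0262 to 0.34 for H2-Ab1, -0.0457 to 0.26 for H2-Eb1, -0.33 to 0.0532 for H2-DMa, -0.24 to 0.19 for H2-DMb1, -0.39 to 0.23 for H2-DMb2, -0.13 to 0.23 for H2-Oa, -0.45 to 0.23 for H2-Ob and -0.17 to 0.22 for Ciita. With the B cell level as a covariate the sign turned for H2-Aa (0.11), H2-DMa (0.0014), H2-DMb1 (0.12), H2-DMb2 (0.10), H2-Oa (0.14), H2-Ob (0.08) and Ciita (0.17). Without both control replicates 1 and 4 it turned for H2-DMb1 (0.0762), H2-DMb2 (0.20), H2-Oa (0.27), H2-Ob (0.22) and Ciita (0.15). Without ECP replicate 1 and control replicate 4, chosen after seeing the data, it turned for H2-DMb1 (0.03), H2-DMb2 (0.04), H2-Oa (0.17), H2-Ob (0.05) and Ciita (0.05). Array weights turned H2-Oa (0.13) and Ciita (0.0351), and repeated quantile normalisation Ciita (0.0042). The count of members following Ciita was 8 of 8, 7 to 8 when 1 array was left out, 6 without both control replicates 1 and 4 (H2-DMa and H2-Oa lost, adjusted p 0.1025 and 0.4161 in limma), 0 without the 2 high arrays and 0 with the B cell level in the fit, and the cause was not tested. At an unadjusted p under 0.05 in limma the count was 5 of 8 without the 2 high arrays, against 5.98% of all genes. With the B cell level in the fit it was 6 of 8, against 1251 of 19504 genes. Fewer arrays, and arrays with a narrower range of Ciita, give wider intervals. The number of arrays limits the precision.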

Other observations

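Control replicate 1, which had the second highest acinar level, was the lowest of the 10 arrays in every measured member except H2-Oa. H2-Ab1 lay 1.01 below the mean of the other 4 control arrays there (-1.01), H2-Aa at -0.82 and H2-Eb1 at -0.74, beside Marchf1 at -1.19, Spi1 at -1.01, the macrophage mannose receptor gene Mrc1 at -1.04 and the lymphatic chemokine gene Ccl21a at -1.55. Mrc1 and Ccl21a departed furthest in their lists, whose means departed by -0.50 for macrophage and -0.75 for lymphoid follicle markers. Other members departed little or upwards, such as Mertk at -0.06, Ccl19 at 0.002 and Cd14 at 0.18. H2-DMb1 departed by -0.77, H2-DMa by -0.75, H2-Ob by -0.67, H2-DMb2 by -0.64 and Ciita by -0.55. H2-Oa departed by -0.13 and the B cell level by -0.45. The mean of the other 4 control arrays includes the high control replicate 4, which enlarges the drop of every class II gene and of the B cell level. Apart from that array, H2-Ob was only just below the remaining controls, at 6.93 where they read 6.97, 6.96 and 7.002. H2-DMb2 was at 7.58 where they read 7.71, 7.74 and 7.596, and Ciita at 6.33 where they read 6.68, 6.69 and 6.48. H2-Ab1 stayed well below them, at 9.38 where they read 10.43, 10.16 and 10.11. H2-Oa was at 6.08 in control replicate 1, above 6.02, 5.91 and 5.74 in control replicates 2, 3 and 5. The B cell level was 6.17 in control replicate 1, above 6.05, 5.98 and 6.04 in those 3 arrays. Neutrophil markers were split in that array, with S100a8 at 1.75 and S100a9 at 0.86 but Csf3r at -0.18 and Cxcr2 at -0.38.

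Plasma cell genes did not move as one with class II. The mean of 5 plasma cell markers departed by 0.59 in ECP replicate 1 and 0.17 in control replicate 4. Jchain, the joining chain of secreted antibodies, departed by 1.52 and -0.14, whereas Mzb1, a chaperone of plasma cells and some B cells, departed by 1.14 and 1.46. Derl3 departed by 0.33 and 0.25, Tnfrsf17 by 0.10 and -0.61 and Sdc1 by -0.14 and -0.10.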
